A study of Mus musculus with 19 samples.

Results

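Genes of immune receptors, cytokines and the major histocompatibility complex (MHC) were examined for extrachromosomal circular DNA (eccDNA) in cervical spinal cord of 9 ALS and 10 control mice. The members were all genes of the table whose symbol starts with a family name of interleukins, CD surface antigens, chemokines and their receptors, Toll-like receptors, the tumor necrosis factor (TNF) superfamily, H2, interferon-related genes, NOD-like receptors, C-type lectins, killer cell lectin-like receptors, Siglecs, or segments of the immunoglobulin heavy and kappa and T cell receptor alpha and beta chains. Names starting with *Il1rapl* were left out. Of the 8336 genes in the table used here, 99 were members, of which 32 were antigen receptor segments and 67 were other genes. One of the 67, *Ifngas1*, is a long non-coding RNA gene and not an interferon. The rule uses symbols and no measured value, but the list was proposed with results of these data known, and an eccDNA in at least 1 library was needed to enter the table.

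The ALS animals were male B6.Cg-Tg(SOD1*G93A)1Gur/J mice, which constitutively overexpress a mutant human *SOD1* transgene and were taken once they showed motor symptoms, at 18 to 21 weeks of age. Mutants without timely symptoms were left out by the study, so that the ALS group stands for symptomatic males only. The controls were C57BL/6J males of matched age, and each animal gave 1 library. Linear DNA was digested in 400 ng of DNA with exonuclease V over 7 days, and rolling circle amplification (RCA) for 48 h then copied the circles that were left. A circle was recognized by split reads, which cross the junction where its ends are joined, and needed at least 2 of them. The measure per gene (PpGC) is the sum of split reads over its eccDNAs times the ratio of the longest gene's length (4434882 bp) to its own, given as log2(PpGC + 1). Cord tissue holds neurons, glia, vessels and blood cells, and the assay counts DNA and not transcripts, so that no marker could check which cells the circles came from. A larger number of cells of a type and more circles per cell cannot be told apart.

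Cytokines and chemokines are secreted signals that reach immune cells through surface receptors, while Toll-like and NOD-like receptors recognize microbial or damage-related molecules and MHC proteins present peptides to T cells. Microglia, the resident macrophages of the cord, use many of these genes. Antigen receptor genes differ from all other members, because developing lymphocytes join V, (D) and J segments at recombination signal sequences, which flank each segment and consist of a heptamer, a spacer and a nonamer. Where the joined segments have the same orientation, the DNA between them leaves the chromosome as a circle.

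The J segments are shown first, because 4 runs of neighbouring J segments, each in a single library, carried equal numbers of split reads along the whole run, and these runs held 17 of the 34 values above 0 of the antigen receptor segments. The sequences are from the RefSeq GRCm38.p6 genome on the plus strand and start 39 bases before the segment. Capitals mark the 7 bases next to the segment where at most 1 of them differs from the heptamer CACTGTG, and any TTTTTGT, the part of the nonamer searched for, in the 39 bases. A sequence without capitals has neither. The immunoglobulin kappa J segments lie at chr6:70722562-70723927, with *Igkj1* to *Igkj3* in one ALS library and *Igkj2* to *Igkj5* in another.
*Igkj1*: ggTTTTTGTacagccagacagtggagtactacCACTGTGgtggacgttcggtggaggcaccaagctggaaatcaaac
*Igkj2*: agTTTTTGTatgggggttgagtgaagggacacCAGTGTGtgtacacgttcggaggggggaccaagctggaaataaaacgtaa
*Igkj3*: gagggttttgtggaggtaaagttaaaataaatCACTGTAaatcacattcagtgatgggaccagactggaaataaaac
*Igkj4*: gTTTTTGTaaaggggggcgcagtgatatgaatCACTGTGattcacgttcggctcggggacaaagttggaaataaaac
*Igkj5*: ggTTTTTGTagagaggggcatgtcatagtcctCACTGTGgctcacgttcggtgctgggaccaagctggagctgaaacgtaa

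In control 5, the T cell receptor alpha segments *Traj61*, *Traj60* and *Traj59*, at chr14:54155005-54156196, had the most split reads of all antigen receptor segments.
*Traj61*: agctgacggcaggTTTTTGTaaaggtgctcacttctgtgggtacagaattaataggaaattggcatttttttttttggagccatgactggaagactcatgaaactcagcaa
*Traj60*: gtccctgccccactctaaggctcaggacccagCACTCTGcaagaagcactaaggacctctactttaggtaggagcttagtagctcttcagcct
*Traj59*: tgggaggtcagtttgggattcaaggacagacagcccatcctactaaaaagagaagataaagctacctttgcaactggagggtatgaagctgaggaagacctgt

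In control 1, all 7 *Trbj2* segments of the T cell receptor beta chain, at chr6:41542754-41543856, shared a value, and the first and last of the run are shown.
*Trbj2-1*: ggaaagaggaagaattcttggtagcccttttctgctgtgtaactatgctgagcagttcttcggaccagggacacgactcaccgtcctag
*Trbj2-7*: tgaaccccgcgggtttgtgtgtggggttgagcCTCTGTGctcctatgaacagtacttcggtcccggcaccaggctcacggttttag

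The heptamer, read on the strand of the segment and directly next to it, was an exact match in 3 of the 5 *Igkj* segments (*Igkj1*, *Igkj4* and *Igkj5*) and had 1 other base in *Igkj2* and *Igkj3*. Of the 18 J segments in the table, 5 (27.8%) had the exact heptamer, and of all 83 J segments of the kappa, alpha, beta and heavy chain loci in GENCODE M21, 19 (22.9%) had it. The heavy chain J segments, none of which is in the table, are 4 of the 83. Among windows of 39 bases in front of 8100 genes of the table, 66 (0.815%) held CACTGTG anywhere on either strand, and none of the 8082 that are no J segments ended with it. A match is a description of the letters and no measurement of recombination. The run of *Igkj2*, *Igkj3*, *Igkj4* and *Igkj5* had 4 split reads on each segment in ALS 1, over a span of 1012 bp. A gene of the table that overlaps these segments did not have that sum in ALS 1. In ALS 3, *Igkj1*, *Igkj2* and *Igkj3* had 14 split reads each over 699 bp, and the predicted gene *Gm30211*, which overlaps them, had the same sum. *Igkj2* and *Igkj3* were therefore the only antigen receptor segments with an eccDNA in 2 libraries, while *Igkj1*, *Igkj4* and *Igkj5* had it in 1. The 7 *Trbj2* segments of control 1 had 9 split reads each over 1103 bp, and the 3 *Traj* segments of control 5 had 249 split reads each over 1192 bp. The table gives no circle ends, so that it does not show whether 1 circle or several carried a run. The V segment *Igkv4-56*, of the same locus, had 5 split reads in ALS 1, a sum other than that of the run. *Igkv4-56* lies on the minus strand and the *Igkj* segments on the plus strand.

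**Figure D1:**
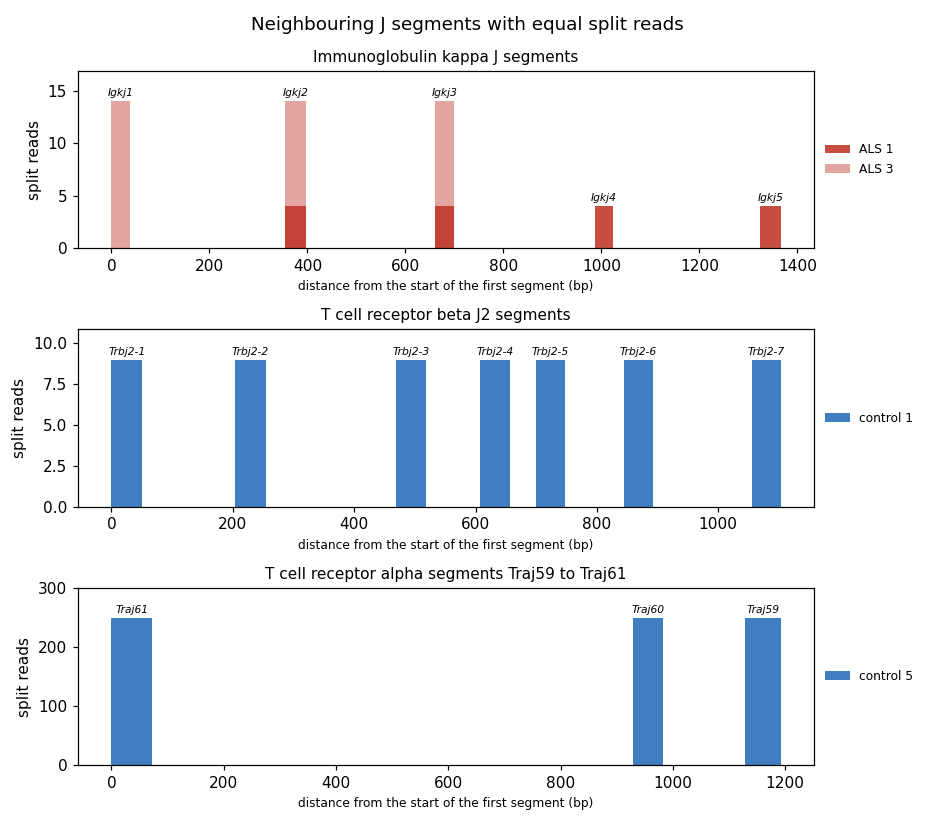
Split reads (vertical axis) of J segments in the 4 libraries with runs, against the distance in bp from the first segment (horizontal axis). Each bar is 1 segment in 1 library, dark red for ALS 1, light red for ALS 3 and blue for controls. The bars of a library have equal height, 4 in ALS 1, 14 in ALS 3, 9 in control 1 and 249 in control 5.

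Over the whole table, an ALS library held between 694 and 2204 genes with an eccDNA and a control library between 57 and 723, and the ratio of the means was 5.35. Split reads on genes ranged from 74017 to 391405 in ALS and from 3583 to 123388 in controls. Libraries are not scaled to each other, so that all comparisons below carry this difference in load. Among the ALS libraries, the share of genes on chromosome 1 ranged from 1.60% in ALS 2 to 13.9% in ALS 4 and on chromosome 13 from 0.442% in ALS 4 to 6.19% in ALS 6, compared to 5.89% to 7.37% on chromosome 6 and 5.08% to 7.82% on chromosome 9. Of the members, 56 lie on chromosomes 2 to 9, 42 on chromosomes 1 and 10 to 19 and 1 on X.

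An eccDNA on a member was found in every ALS library and in 6 of 10 control libraries. The number of members was 11.1 ± 4.78 (SD, n = 9) per ALS library, with a low of 5 in ALS 5, a median of 9 and a high of 20 in ALS 3. In controls it was 2.40 ± 3.98 (SD, n = 10), with a low of 0, a median of 1 and a high of 13 in control 1. Control 1 held more members than 7 of the 9 ALS libraries, and the other controls held 4 or fewer, so that the groups overlapped through this library. The ratio of the means was 4.63, beside 5.35 for all genes, and 9.09 without control 1, beside 6.84 for all genes without it. With controls 1 and 5 both left out, which was chosen after seeing the data, it was 12.7. The ratio for all genes was not computed for that choice. Without control 5 alone the ratio was 5.00 for members and 4.93 for all genes. As a share of the genes with an eccDNA, members made up 0.854% of all values above 0 in ALS and 0.986% in controls. No test was made of these counts.

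**Figure D2:**
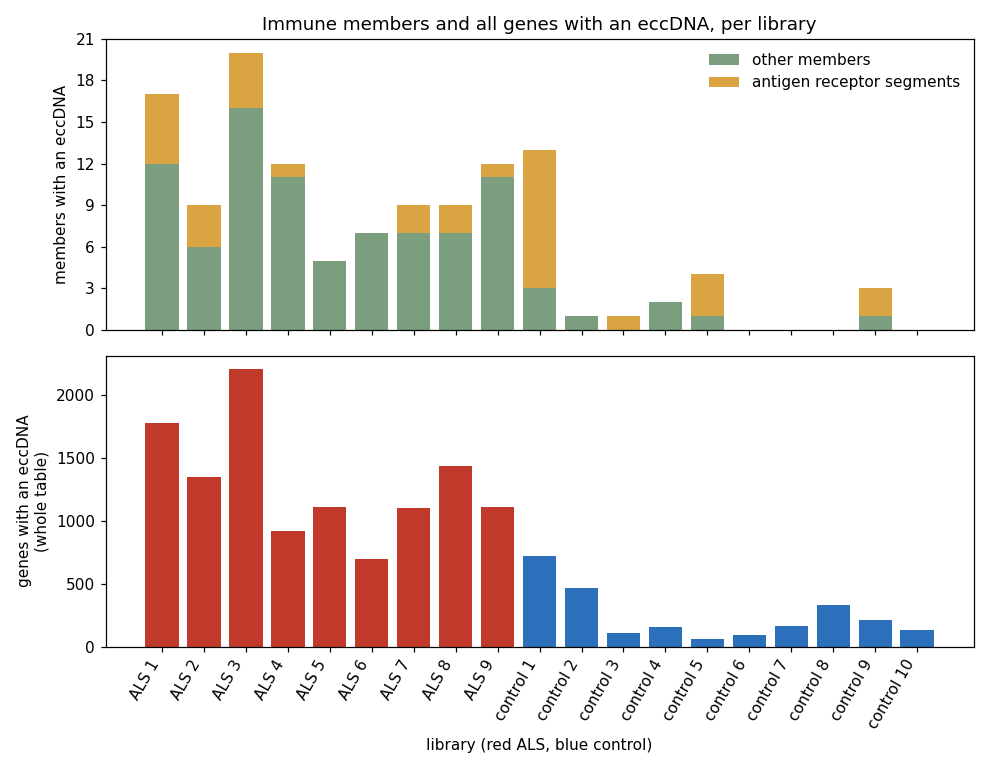
Upper panel: number of members with an eccDNA in each library (vertical axis), as antigen receptor segments (ochre) and other members (green). Lower panel: number of all genes with an eccDNA in the same library, red for ALS and blue for control. ALS 3 has the most members (20) and the most genes (2204), and control 1 has 13 members, 10 of them segments.

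Antigen receptor segments and other members are given apart, a division made after seeing the data and without a test between them. The 67 other members had 82 values above 0 in ALS and 8 in controls, 9.11 ± 3.59 (SD, n = 9) per ALS library against 0.80 ± 1.03 (SD, n = 10) per control library, a ratio of 11.4. Every ALS library held at least 5 of them and no control held more than 3, so that the groups did not overlap. Over all genes the ratio was 5.35, and the groups overlapped only between 694 genes in ALS 6 and 723 in control 1. The 8 control values were those of *Ccr7*, *Nlrp14* and *Tnfrsf11a* in control 1, *Ifih1* in control 2, *Cd109* and *Cd302* in control 4, *Cd209b* in control 5 and *H2-M5* in control 9. Leaving out 1 library moved the ratio between 10.3 and 16.4. The 32 segments had 18 values above 0 in ALS and 16 in controls, 2.00 ± 1.73 (SD, n = 9) against 1.60 ± 3.13 (SD, n = 10) per library, a ratio of 1.25, with overlapping groups. Control 1 held 10 of the 16 control values and control 5 held 3, and the ratio was 3.00 without control 1. Non-member genes of up to 1 kb, a class that reaches beyond the segments' 594 bp and is not matched to their lengths, had 244 values above 0 in ALS and 50 in controls, a ratio of 5.42. When neighbouring members with the same split reads were counted once, the ratio over all members was 6.60. On chromosomes 2 to 9 the members had 57 values above 0 in ALS and 13 in controls (ratio per library 4.87), and on chromosomes 1 and 10 to 19 they had 42 and 11 (ratio 4.24).

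Of the 99 members, 81 (81.8%) had an eccDNA in 1 library only, 14 in 2 and 4 in 3 or more, beside 66.2% in 1 library for all genes. The members are shorter than the genes of the table at large, with a median length of 17.8 kb compared to 49.2 kb, and the 67 other members had a median of 32.5 kb. Of the 1124 gene names of the same families in GENCODE M21, 99 (8.81%) were in the table, beside 8106 of 55341 names overall (14.6%). Within length classes, the shares were 5.12% against 1.70% of names up to 1 kb, 4.91% against 5.26% between 1 and 10 kb, 15.6% against 22.3% between 10 and 50 kb, 43.6% against 52.9% between 50 and 100 kb, and 36.4% (4 of 11) against 75.0% between 100 and 200 kb. The members up to 1 kb are the 32 antigen receptor segments. They include the 4 runs of J segments, in each of which 1 circle may have brought several names into the table. By family, the share was highest for NOD-like receptors (8 of 25, 32.0%) and interleukin receptors (10 of 38, 26.3%) and was 4.44% for H2 genes (2 of 45). None of the 6 Siglec genes and none of the 8 TNF-induced genes was in the table.

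**Figure D3:**
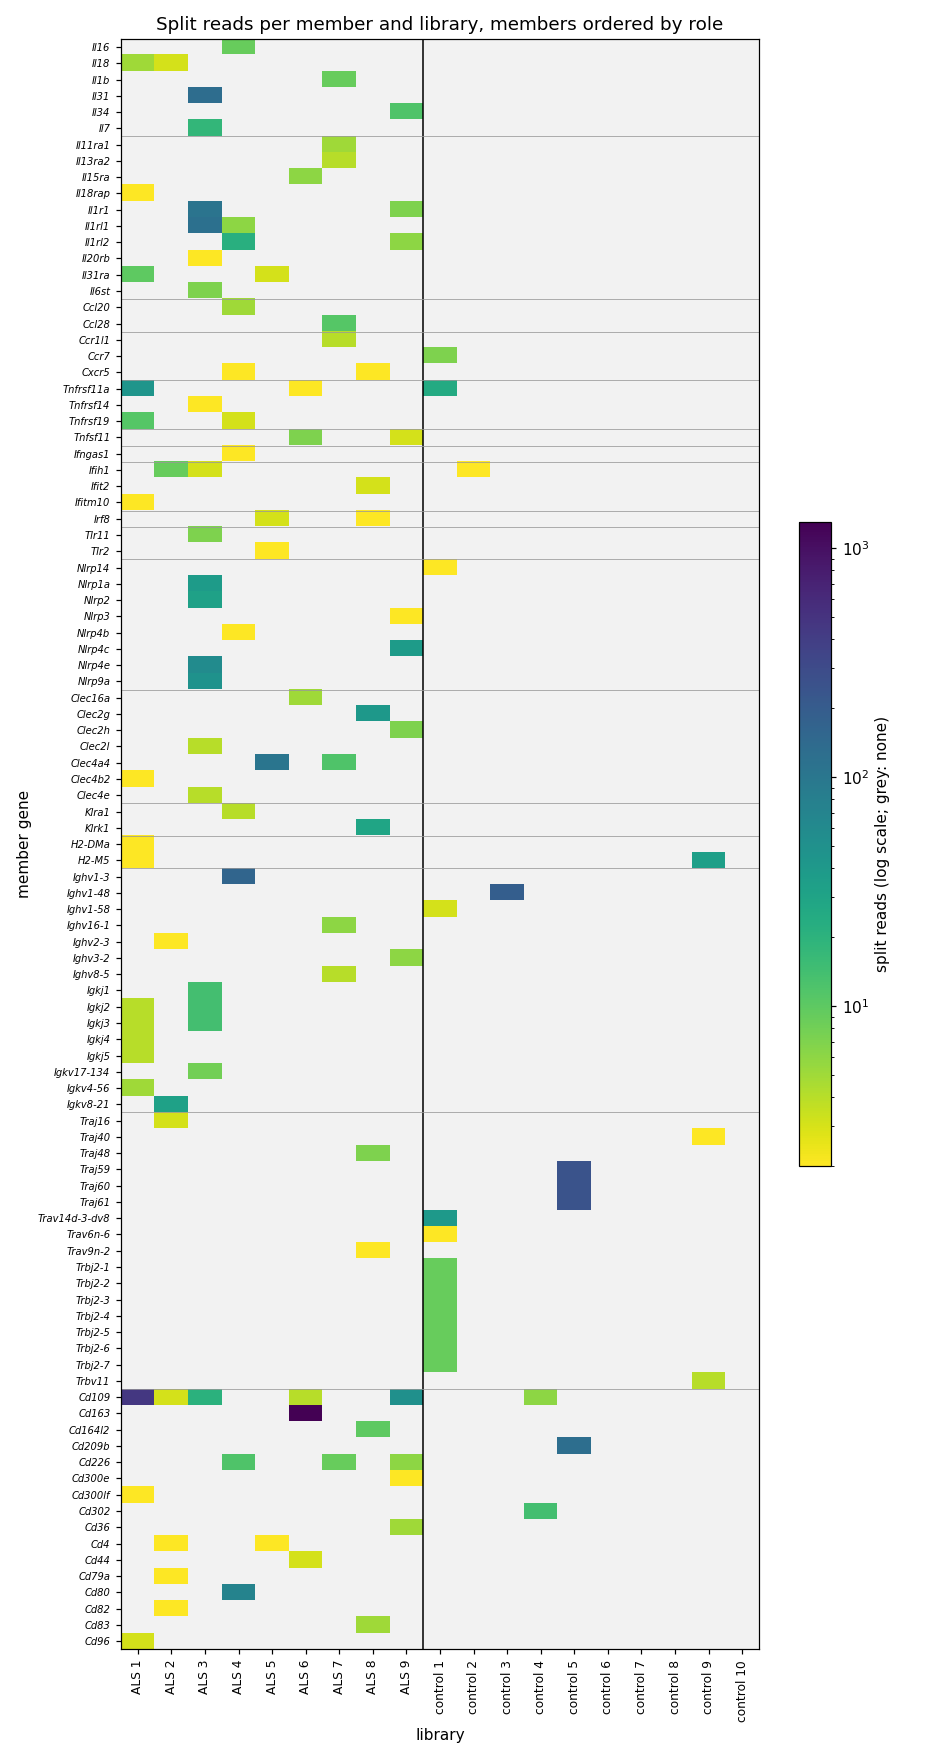
Split reads of each of the 99 members (rows, grouped by role) in each of the 19 libraries (columns), with the color on a log scale and grey where none were found. The left 9 columns are ALS, and most rows have 1 colored cell, while *Cd109* has 6 and the runs of J segments stand as blocks in control 1 and control 5.

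None of the 99 members passed both thresholds of the methods' t-test, a difference of mean log2(PpGC + 1) over 1 and a p under 0.01, in either direction. Over all genes, the share called was 1.33% higher and 0% lower in ALS. At an unadjusted p under 0.05 of the same test 2 members were higher, *Cd109* and *Cd226*, beside 4.2% of all genes. No member was called higher in ALS by limma (1.99% of all genes), by exact permutation at 0.01 (0.816%) or by Fisher's exact test on presence (0.684%). With the exact permutation test at 0.05, 1 member (*Cd109*) was higher in ALS, beside 3.72% of all genes. The mean was higher in ALS for 78 of the 99 members (78.8%) and lower for 21, beside 86.5% higher of all genes. Among the other members 62 of 67 were higher and among the segments 16 of 32. The median difference over the members was 1.18, beside 1.19 over all genes. A member with an eccDNA in 1 ALS library and no control has an exact permutation p of 0.474, and with 2 ALS libraries and no control one of 0.211, so that only recurrent members could pass. Genes over 200 kb made up 99 of the 111 genes called in the table, and no member is that long.

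The most recurrent member was *Cd109*, at chr9:78615546-78716253 on the plus strand, which spans 100.7 kb. It encodes a GPI-anchored surface protein of the alpha-2-macroglobulin family that binds TGF-beta and is found on activated T cells and platelets. In ALS it had 459 split reads in ALS 1, 50 in ALS 9, 21 in ALS 3, 4 in ALS 6 and 3 in ALS 2, and none in ALS 4, 5, 7 and 8. Among controls, control 4 had 6 and the other 9 had none. The control value lay within the range of the ALS values. Its mean log2(PpGC + 1) was 5.53 ± 5.65 (SD, n = 9) in ALS mice and 0.81 ± 2.55 (SD, n = 10) in control mice. The difference was 4.73, with a standard error of 1.97 (p = 0.0341, two-sided exact permutation test). Adjusted over all genes, the exact permutation p was 0.581. Without any 1 of the 5 ALS libraries that held it the exact p was 0.0686 to 0.0850, without any 1 of the 9 controls at 0 it was 0.0701, and without control 4 it was 0.0294 and the gene then passed both thresholds. With the load of each library (how many of its genes had an eccDNA) as a covariate, the difference was 0.32 (p = 0.930, permutation of residuals). After scaling of the libraries to equal totals it was 4.11 (exact permutation p = 0.0635). Of the 1331 genes between 100 and 200 kb, 15 (1.13%) had an eccDNA in at least 5 ALS libraries, and 13 of these in at most 1 control. Within 1 Mb of *Cd109*, 9 other genes of the table had an eccDNA, each in at most 2 ALS libraries, and ALS 3 was the only library with *Cd109* and its left neighbour *Slc17a5* (8 split reads).

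**Figure D4:**
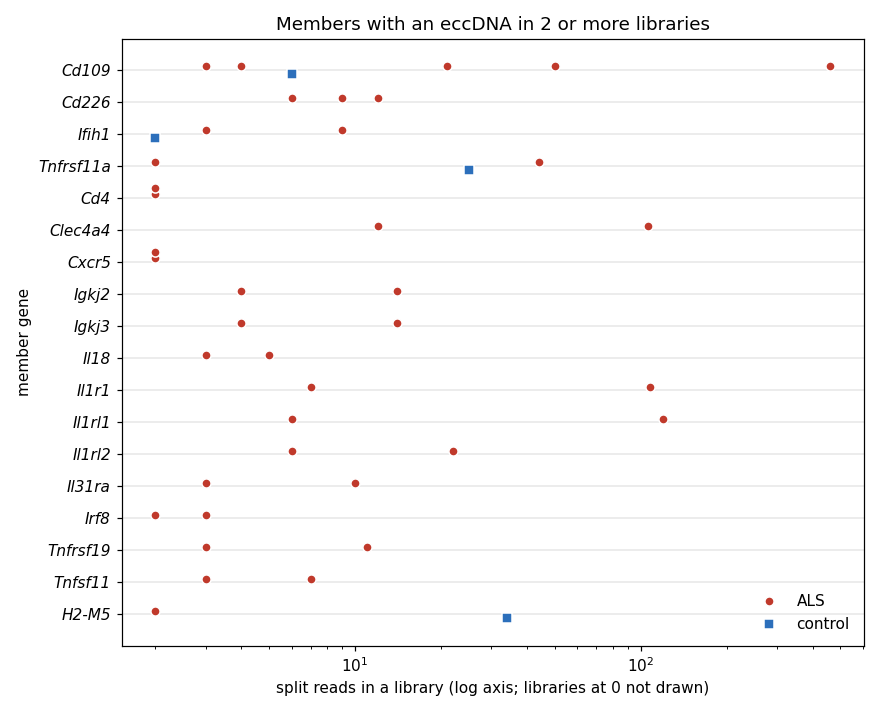
Split reads on a log axis (horizontal) for the 18 members with an eccDNA in 2 or more libraries (rows). Each red circle is an ALS library and each blue square a control, equal values are drawn above each other, and libraries at 0 are not drawn. *Cd109* has 5 ALS libraries from 3 to 459 split reads, and 14 of the 18 rows have no control.

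Of the 18 members with an eccDNA in 2 or more libraries, 14 had none in controls, beside 1610 of 2819 such genes in the table. *Cd226*, an activating receptor of T and natural killer cells, had 12 split reads in ALS 4, 9 in ALS 7 and 6 in ALS 9 and none elsewhere. Its difference was 2.89 with a standard error of 1.37 (exact permutation p = 0.0867), and with the load as a covariate it was 6.31 (permutation of residuals p = 0.0202). *Cd4*, the coreceptor of helper T cells, had 2 split reads in ALS 2 and in ALS 5, the lowest sum that can enter the table. The largest sum of any member was that of *Cd163*, the hemoglobin scavenger receptor of perivascular macrophages, with 1297 split reads in ALS 6 and none in the other 18 libraries. *Cd36*, a scavenger receptor for lipids and at 107.1 kb one of the 3 longest members, had 5 split reads in ALS 9. The 16 CD genes comprised 14 with a higher mean in ALS and 2, *Cd209b* and *Cd302*, with an eccDNA in controls only. *Cd209b*, a C-type lectin of the DC-SIGN family, had 125 split reads in control 5, and *Cd302* had 14 in control 4.

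No interleukin or interleukin receptor gene of the table had an eccDNA in a control, as was the case for 6255 of all 8336 genes (75.0%). Of the 43 interleukin names in the annotation 6 were in the table, with 7 values above 0 in ALS, and of the 38 interleukin receptor names 10 were, with 14 values in ALS. *Il18*, a cytokine that drives interferon gamma production, had 5 split reads in ALS 1 and 3 in ALS 2, with a difference of 2.07 (-0.48 with the load as a covariate). *Il31*, a cytokine of itch, had 127 split reads in ALS 3, and its receptor gene *Il31ra* had 10 in ALS 1 and 3 in ALS 5, so that ligand and receptor did not share a library. *Il1b*, the proinflammatory cytokine interleukin-1 beta, had 9 split reads in ALS 7. *Il16*, a ligand of CD4 and at 102.9 kb among the 3 longest members, had 9 in ALS 4.

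The interleukin-1 receptor cluster on chromosome 1 held 4 members within 0.327 Mb. At chr1:40225080-40551705, the only genes of the table were *Il1r1*, *Il1rl2*, *Il1rl1* and *Il18rap*, and 4 ALS libraries and no control had an eccDNA there. This is not particular to the cluster, since 75.0% of all genes had no value in controls. The neighbouring genes *Clec4a4*, *Clec4b2* and *Clec4e* on chromosome 6 likewise had values in 4 ALS libraries and no control. ALS 3 had 108 split reads on *Il1r1*, the interleukin-1 receptor, and 120 on *Il1rl1*, the interleukin-33 receptor. ALS 4 had 22 on *Il1rl2*, the interleukin-36 receptor, and 6 on *Il1rl1*. ALS 9 had 7 on *Il1r1* and 6 on *Il1rl2*, and ALS 1 had 2 on *Il18rap*. No pair of these genes had equal sums in a library. The differences were 2.60 for *Il1rl1*, 2.30 for *Il1r1* and 2.27 for *Il1rl2*, each with an exact permutation p of 0.211. With the load as a covariate they were -1.95, -2.57 and 5.33, in the same order. Among ALS libraries, ALS 4 also had the largest share of its genes on chromosome 1, 13.9% (control 10 had 16.4%), and ALS 3 and ALS 9 had 6.52% and 5.49%, and the part of these shares in the result was not tested.

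Of 38 chemokine names 2 were in the table, and of 17 chemokine receptor names 3. The chemokine receptor *Cxcr5*, which guides B cells to follicles, had 2 split reads each in ALS 4 and ALS 8. *Ccl20*, the ligand of CCR6, had 5 in ALS 4, and *Ccr7*, the receptor that leads cells to lymph nodes, had 7 in control 1 and none in ALS. In the TNF superfamily, *Tnfsf11* encodes the ligand RANKL and *Tnfrsf11a* its receptor RANK. *Tnfsf11* had 7 split reads in ALS 6 and 3 in ALS 9, with a difference of 2.08 (6.04 with the load as a covariate, permutation of residuals p = 0.0192). *Tnfrsf11a* had 44 in ALS 1, 2 in ALS 6 and 25 in control 1, with a difference of 0.99 (exact permutation p = 0.598) and overlapping groups, and with the load as a covariate it was -2.22. ALS 6 was the only library with both.

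Among sensors of infection, *Ifih1* encodes MDA5, a receptor for double-stranded RNA. It had 9 split reads in ALS 2, 3 in ALS 3 and 2 in control 2, and its difference was 1.22 (exact permutation p = 0.334), which turned to -3.55 with the load as a covariate. *Irf8*, a transcription factor of microglia and other myeloid cells, had 3 in ALS 5 and 2 in ALS 8. Of 12 Toll-like receptor names 2 were in the table, with 7 split reads on *Tlr11* in ALS 3 and 2 on *Tlr2* in ALS 5. The 8 NOD-like receptor genes each had an eccDNA in 1 library. ALS 3 held 4 of them, with 57 split reads on *Nlrp4e*, 48 on *Nlrp9a*, 37 on *Nlrp1a* and 32 on *Nlrp2*, and it is also the ALS library with the most genes with an eccDNA. *Nlrp3*, the sensor of the best-studied inflammasome, had 2 in ALS 9, and *Nlrp14* had 2 in control 1. *Ifngas1* had 2 split reads in ALS 4.

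The 7 genes with *Clec* and the 2 with *Klr* symbols had 10 values above 0, and these were in ALS libraries. Of all genes, 75.0% likewise had no value in controls. The lectin gene *Cd209b*, described above, had its value in a control. *Clec4a4*, a dendritic cell lectin, had 106 split reads in ALS 5 and 12 in ALS 7, with a difference of 2.71 (exact permutation p = 0.211), or 5.09 with the load as a covariate. *Klrk1*, which encodes the activating receptor NKG2D, had 29 in ALS 8, where *Clec2g*, from the same gene complex on chromosome 6, had 41. The genes *Gm15987* and *Mir7649*, which overlap *Clec2g*, had the same sum there. *Clec16a*, at 199.5 kb the longest member, had 5 in ALS 6 only. Of 45 H2 names, *H2-DMa*, which helps load peptides on class II molecules, had 2 split reads in ALS 1, and the class Ib gene *H2-M5* had 2 in ALS 1 and 34 in control 9, with a difference of -0.29 (-2.65 with the load as a covariate).

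The antigen receptor segments held the 5 most negative differences of the members. They were *Traj60* (-2.43), *Traj59* (-2.40), *Traj61* (-2.39), *Ighv1-48* (-2.14) and *Trbj2-7* (-1.97), each from 1 control library with an exact permutation p of 1. The first 3 share the value of control 5 shown above. *Ighv1-48*, a heavy chain V segment, had 186 split reads in control 3, and *Ighv1-3* had 158 in ALS 4. By locus, the 15 immunoglobulin segments had 15 values above 0 in ALS and 2 in controls, and the 17 T cell receptor segments had 3 in ALS and 14 in controls. Of the 15 immunoglobulin values in ALS, 7 belong to the runs of ALS 1 and ALS 3, and of the 14 T cell receptor values in controls, 10 belong to the runs of control 1 and control 5. With each run counted once, which was chosen after seeing the data, the counts were 10 and 2 for immunoglobulin and 3 and 6 for T cell receptor segments, beside a ratio per library of 5.35 over all genes. The T cell receptor values outside the runs in controls were *Trav14d-3-dv8* with 39 and *Trav6n-6* with 2 split reads in control 1, and *Trbv11* with 4 and *Traj40* with 2 in control 9. The T cell receptor values in controls thus came from 3 of 10 libraries. The differences of *Igkj2* and *Igkj3* were 4.35 and 4.39 (exact permutation p = 0.211), and with the load as a covariate they were reversed, at -9.60 and -9.69 (p = 0.0109 for both, permutation of residuals). Neither had a value in controls, and both had values only in ALS 1 and ALS 3, the libraries with the most genes with an eccDNA.

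The deposited values of members follow both the split reads and the length scaling. The segments are 38 to 594 bp long, and their values above 0 ranged from 14.24 to 24.29 on the log2 scale with a median of 8.5 split reads. The other members are 1.17 to 199.5 kb long, and their values ranged from 6.81 to 17.76 with a median of 5.5 split reads. The 2 split reads of *Traj40* in control 9 thus gave a log2 value of 17.15, above the 14.30 of the 459 split reads of *Cd109* in ALS 1. Of the 124 values of the members above 0, 27 (21.8%) were 2 split reads and 12 were 100 or more, beside 19.9% with 2 split reads over all genes.

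**Figure D5:**
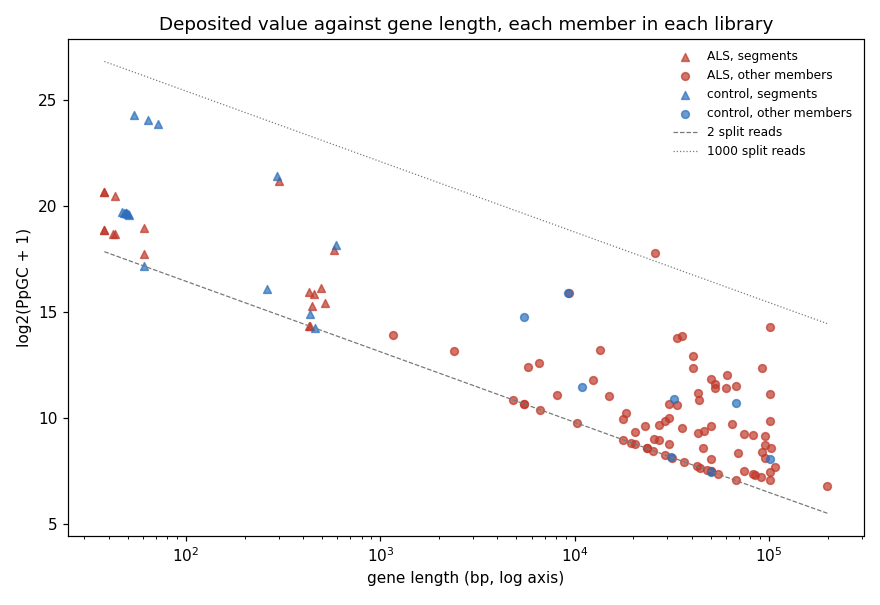
Deposited log2(PpGC + 1) of each member in each library with an eccDNA (vertical axis) against gene length in bp on a log axis (horizontal). Triangles are antigen receptor segments and circles other members, red for ALS and blue for control, and the dashed line gives the value of 2 split reads at each length and the dotted line that of the larger number in the legend. The segments, of 594 bp or less, lie at 14.24 or above.

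Genes that act with the members, but carry other names, were taken from 6 lists. Of 22 microglia and macrophage genes 6 were in the table, all with a higher mean in ALS and no value above 0 in controls, beside 86.5% and 75.0% of all genes. The 1 gene that passed both thresholds, as did 1.33% of all genes, was *Cx3cr1*, the fractalkine receptor of microglia, with 8 split reads in ALS 3, 3 in ALS 8 and 2 each in ALS 1, ALS 4 and ALS 7, and a difference of 3.48 (exact permutation p = 0.0108). Adjusted over all genes, the exact permutation p was 0.581. *Cx3cr1* spans 168.3 kb in the annotation used, and 0.601% of genes between 100 and 200 kb passed both thresholds. It was not checked for overlapping genes with equal split reads. Its 5 libraries each held more genes with an eccDNA than any control, as did every ALS library except ALS 6. With the load as a covariate, a fit added after seeing the data, the difference was -0.24 (p = 0.895, permutation of residuals). Load separates the groups nearly fully, so that load and group can hardly be told apart, and a cause of the difference was not tested. *Mrc1*, the mannose receptor of perivascular macrophages, had 3407 split reads in ALS 4 and 6 each in ALS 1 and ALS 8. No gene of the other 5 lists passed in either direction. Of 15 names listed for cytosolic DNA sensing, 13 were in GENCODE M21 and 3 in the table, with 2 values above 0 in ALS and 1 in controls. *Zbp1* and *Ddx58* had an eccDNA in ALS only, and *Enpp1*, which degrades the messenger cGAMP, in a control only. Of 29 names of NF-kB and Toll-like receptor signalling 9 were in the table with 11 values above 0 in ALS and 2 in controls, of 25 JAK-STAT names 8 with 13 and 1, and of 24 complement names 5 with 6 and 0. The lymphocyte list, with signalling and V(D)J recombination genes, had 12 of 22 names in the table with 15 and 5 values. Of these 12, 11 had a higher mean in ALS, beside 86.5% of all genes. The lymphocyte factors *Pax5* and *Ikzf1* each had 2 values in ALS and 1 in controls, and the B cell factor *Ebf1* had none in ALS and 1 in controls. *Btk*, *Syk*, *Blnk*, *Themis*, *Bach2*, *Ikzf3* and *Fyn* had values in ALS only. The median differences of the 6 lists lay between 0.88 and 1.74, beside 1.19 over all genes.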

How the data were processed

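Cervical spinal cord DNA of 9 ALS and 10 control animals was measured, 1 library per animal, on BGISEQ-500. The authors mapped reads to mm10 with Circle_Finder, merged eccDNAs within 10 bp, removed those with fewer than 2 split reads, and intersected the rest with GENCODE genes (bedtools). They deposited log2(PpGC + 1), scaled for gene length and not between libraries. The table does not give sequencing depth, and RCA copies 1 circle many times, so that no counting interval was attached.

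From there, genes were matched by name to GENCODE M21 on mm10 (8106 of 8336, and all 99 members), and the length scaling was undone, which gave whole split reads for 98.9% of values above 0 (tolerance 0.02). Every gene was tested with Student's test for equal variances at the thresholds the methods name (difference over 1, p under 0.01), and with the exact permutation test over all 92378 assignments of the libraries to groups of these sizes, two-sided by the size of the difference, with Benjamini-Hochberg adjustment over all genes. The covariate was tested with 100000 permutations of residuals (seed 20). Runs joined members within 2000 bp with equal split reads. The tests were checked on simulated data.

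Genes named were *Cd109*, members past the thresholds, the 10 with the smallest exact p (13 members tied at 0.211, and the smaller Student p decided, which the rule had not stated), the member in most libraries of each role, members in 3 or more controls, the 5 most negative differences, the 3 longest, and segments in 2 libraries. Others (such as *Cd163*, *Il1r1*, *Il31*, the runs and genes of the 6 further lists) were named after their values were seen. Members and lists were chosen with earlier results of these data known. Software was limma 3.58.1 in R 4.3.3, and SciPy 1.17.1, NumPy 2.4.6, pandas 2.3.3 and matplotlib 3.10.9 in Python 3.11.15. Alternatives were another test, scaling, pseudocount, filter, covariate or block, and each library left out.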

Additional observations from a re-analysis of the deposited data

Results flagged for a closer look

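Within a group, single libraries stood apart from the rest (Dixon's criterion, which flags about 1 in 20 groups by chance). Control 1 stood apart with 13 members, 10 antigen receptor segments, and 7 members when runs were counted once. Control 5 stood apart with 872 split reads on members, and with members making up 7.02% of its genes, which number 57. ALS 6 stood apart with 1324 split reads on members, of which 1297 were on *Cd163*. For the 28 named members, 18 groups of values had a single library above 0, which by construction lies apart.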

How the results depend on the processing

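The count of members past both thresholds stayed at 0 under the 10 other tests and scalings and was 0 to 1 when single libraries were left out. Few genes were called at all under these 10 settings. The share of all genes was 0.072% with Benjamini-Hochberg adjusted Student p, 0.108% with a pseudocount of 100 and 0.312% with load as covariate. The largest share was 1.99%, with limma. Shares this low leave few or no members to be called, so that the steady 0 is not particular to the members. The median difference of 1.18 was 0.29 without length scaling (all genes 0.35), 0.43 with a pseudocount of 100 (all genes 0.39), and 1.08 to 1.30 without single libraries. The ratio of members per library was 4.17 to 9.09 without single libraries, highest without control 1. It was 12.7 without controls 1 and 5 and 11.4 without segments, both chosen after seeing the data. The *Cd109* difference of 4.73 kept its sign but missed 0.05 with load as covariate (0.32), with equal totals (4.11), as a difference in the share of libraries with an eccDNA (0.456, Fisher's exact p = 0.0573) and in the fit with a replicate block (4.64, exact p = 0.125), and ranged from 3.63 to 5.53 without single libraries. The labels state no pairing of animals by replicate number. Same-numbered libraries correlated between -0.021 and 0.023, which cannot settle the point, because 91.1% of all values are 0. The block changed no call of the 27 other named members. The block fit drops control 10, which has no partner. Over all genes it called 54 in place of 111, and leaving out control 10 alone gave 98. With load as covariate, 8 of 27 other named members changed sign, *Igkj3* (-9.69), *Igkj2* (-9.60), *Tlr11* (-4.34), *Nlrp9a* (-4.32), *Ifih1* (-3.55), *Tnfrsf11a* (-2.22), *Il1rl1* (-1.95) and *Il18* (-0.48). Of the 27, 7 had a p under 0.05 (permutation of residuals), with a negative fit for *Igkj2*, *Igkj3*, *Tlr11* and *Nlrp9a* and a positive one for *Cd226* (6.31), *Tnfsf11* (6.04) and *Clec16a* (2.87). None of these 7 had a value in controls, so that a negative fit does not mean more circles there. *Tlr11* and *Nlrp9a* had values only in ALS 3, the library with the highest load, and *Clec16a* only in ALS 6, the ALS library with the lowest. Shares over all genes were not computed for these counts, and the named members were partly chosen by small p or extreme difference. Of genes fitted after seeing the data, *Cx3cr1* (-0.24) and *Il1r1* (-2.57) also changed sign. Load separates the groups nearly fully, so that it and the group can hardly be told apart. A value of 0 means only that no circle reached 2 split reads.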
